A study of Mus musculus with 4 samples.

Results

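Transcript levels of 10 genes that restrain, activate or form the growth kinase complex mTORC1 were examined in mouse T cell cultures. By the submitters' labels, the cultures were with or without the folate enzyme Mthfd2. The genes were chosen by symbol and are Ddit4, Sesn1, Sesn2, Sesn3, Tsc1, Tsc2, Rheb, Depdc5, Mtor and Rptor. All 10 were present among the 31748 gene symbols of the count tables, and all 10 passed the filter on low counts that left 12752 genes. The data were bulk RNA-seq read counts from 2 libraries labelled TEaMthfd2 KO (KO) and 2 labelled TEaWT (WT). In both groups the labels name CD4+ T cells, taken from spleens of 8-week-old mice by positive magnetic selection, and TEa is known as a T cell receptor transgene. The T cells were cultured for 3 days with mitomycin-treated antigen-presenting cells from spleens of F1 mice of the cross BALB/c x C57BL/6. The series is titled as a profile of alloreactive T cells with and without Mthfd2. The labels give neither the deleted part of Mthfd2 nor a promoter that drives the deletion, and they do not describe removal of the presenting cells before RNA extraction. Whether replicates are separate animals or cultures is not stated, so p-values reflect only library-to-library spread, possibly technical.

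The members were chosen with the KO and WT values of these libraries already known. Their KO over WT values are therefore given as a description, with no test of their own, and they support nothing. Where a gene is named as called, the call is that of a fit over all 12752 genes (edgeR quasi-likelihood, Benjamini-Hochberg adjusted p under 0.05). Levels are in CPM, read counts scaled to the TMM-adjusted size of each library. Log2 fold changes are KO over WT ± a standard error (SE), from 2 libraries a group. The SE is the absolute log2 fold change divided by the square root of its quasi-likelihood F statistic. That statistic uses a spread moderated over all genes, so the SE is not the spread of the 2 libraries a group alone.

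mTORC1 is a kinase complex on the lysosome that drives protein synthesis, ribosome production and cell growth when growth signals and nutrients are both present. Growth signals reach it through RHEB, a GTPase that activates the kinase and that the TSC complex switches off. Amino acids reach it through the Rag GTPases, which GATOR1 inhibits and GATOR2 frees from that inhibition. In T cells the complex is switched on by antigen receptor and costimulatory signals and is needed for the growth of activated cells.

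Total counts were between 14191401 and 14419298 in KO libraries and between 14686711 and 15955863 in WT libraries. Mthfd2 itself had 222 and 252 CPM in KO libraries, against 280 and 280 CPM in WT libraries (log2 fold change -0.24 ± 0.14), and was not called. Gene-level counts do not show whether particular exons are missing, so the directions given here rest on the submitters' labels. Cd8a stood at 3.16 and 3.20 times the level of Cd4 in KO libraries and at 4.00 and 3.10 times in WT libraries, which goes against a pure CD4+ population. Trbv19, the beta chain segment known for the TEa receptor, held 6.37% and 7.37% of Trbv counts in KO libraries and 7.39% and 8.39% in WT libraries, which goes against a population of mostly TEa cells. H2-Ea, which BALB/c cells transcribe and from which the peptide seen by TEa is derived, had 0 and 0 counts in KO libraries and 2 and 0 counts in WT libraries. The F1 presenting cells named in the labels thus left almost no trace in this gene. Which cells the class II transcripts described below came from was not tested. Markers of B cells and of antigen presentation were present in every library and differed between the groups. The 5 B cell markers summed to between 293 and 325 CPM in KO libraries and to between 567 and 956 CPM in WT libraries, with 3 of 5 called lower. The 5 markers of class II antigen presentation summed to between 1007 and 1176 CPM in KO libraries and to between 2241 and 3780 CPM in WT libraries, with 5 of 5 called lower. The 4 markers listed for CD4 T cells and found in the tables were Cd4 and Cd3e, Cd3d and Cd3g, which CD8 T cells also express. They summed to between 952 and 981 CPM in KO libraries and to between 518 and 580 CPM in WT libraries, with 3 of 4 called higher. Cd4 alone had 174 and 193 CPM in KO libraries, against 134 and 153 CPM in WT libraries. Myeloid markers summed to at most 5.30 CPM in KO libraries and 10.9 CPM in WT libraries, with 0 of the 2 tested called. Of these lists, Itgam was at 0 in KO replicate 1 and WT replicate 2, Cd14 in both KO libraries, and Csf1r in KO replicate 2. WT replicate 1 lay apart, at 65.1 on the first principal component, against 19.6 for WT replicate 2 and -43.8 and -40.9 for the KO libraries. In a mixed culture, fewer cells of a type and less RNA per cell cannot be told apart, and the part of the cell mixture in the values below was not tested.

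Promoter sequence is shown for 4 genes. Ddit4 was the member with the largest difference, Rptor holds the same short motif, and Sesn2 and Sesn3 are relatives that lay on opposite sides. The stretches are from RefSeq (GRCm38.p6), end within 250 bases before the annotated start, and leave out bases that GENCODE places in an exon. Each reads 5′ to 3′ on the strand of the gene. Capitals mark ACGTG on either strand, the core that hypoxia-inducible factors recognise.

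Ddit4, chr10:59951835-59952020, minus strand: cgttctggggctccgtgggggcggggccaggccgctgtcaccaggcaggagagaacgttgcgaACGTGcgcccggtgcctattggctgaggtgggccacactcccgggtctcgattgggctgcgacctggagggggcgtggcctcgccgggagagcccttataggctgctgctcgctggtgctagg
Rptor, chr11:119602655-119602904, plus strand: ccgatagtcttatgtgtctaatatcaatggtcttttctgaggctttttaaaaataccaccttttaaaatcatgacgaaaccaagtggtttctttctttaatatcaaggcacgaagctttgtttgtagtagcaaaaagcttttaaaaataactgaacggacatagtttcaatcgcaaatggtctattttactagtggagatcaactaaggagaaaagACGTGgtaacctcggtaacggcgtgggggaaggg
Sesn2, chr4:132510502-132510706, minus strand: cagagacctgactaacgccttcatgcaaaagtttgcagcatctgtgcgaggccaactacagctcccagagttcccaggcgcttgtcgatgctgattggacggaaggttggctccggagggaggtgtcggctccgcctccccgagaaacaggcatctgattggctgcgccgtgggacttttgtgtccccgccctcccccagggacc
Sesn3, chr9:14276051-14276300, plus strand: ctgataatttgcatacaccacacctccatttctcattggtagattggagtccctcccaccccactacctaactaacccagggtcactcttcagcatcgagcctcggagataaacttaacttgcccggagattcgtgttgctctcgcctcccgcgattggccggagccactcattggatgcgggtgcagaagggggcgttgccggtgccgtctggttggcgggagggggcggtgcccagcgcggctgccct

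The table held 11 promoters for the 10 genes, with 2 for Sesn1. ACGTG was found on either strand in the 250 bases before the start of Ddit4, Rptor and Rheb, and in 16.6% of all 32851 promoters of the table. Counted from the RefSeq start, the match in Ddit4 began 187 bases and that in Rptor 34 bases before it. The Ddit4 stretch shown has 186 bases and stops short of that start, because the rest of the window lies in a GENCODE exon. In Rheb the letters lay on both strands of a CACGTG, an E-box, which 6.02% of all promoters held. Neither GTAAACA, which FOXO factors recognise (3.17% of all promoters), nor TGATGNAA, a form of the ATF4 response element (3.45%), was found in the windows of the 10 genes on either strand. A match describes the letters of a window and is not evidence of binding. The part of these motifs in the levels of the members was not tested.

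Ddit4 encodes REDD1, a stress-induced inhibitor that acts through the TSC complex and is known to be induced by hypoxia, energy stress and glucocorticoids. It had 3983 and 2601 counts in KO libraries, against 283 and 428 counts in WT libraries. In CPM these were 282 and 186 in KO libraries, against 17.3 and 28.9 in WT libraries. Both KO libraries lay above both WT libraries by far more than libraries of a group differed, where the higher library had 1.51 times the level of the lower among KO and 1.67 times among WT. The KO mean was 10.1 times the WT mean (234 ± 67.3 CPM in KO libraries and 23.1 ± 8.23 CPM in WT libraries, SD, n = 2 each), and the log2 fold change was 3.34 ± 0.32. Ddit4 was the only 1 of the 10 members called by edgeR, as higher in KO, beside 3.95% of all genes tested called in either direction, 2.39% called higher and 1.56% called lower. Because this contrast was known when the members were chosen, nothing is read from that count. Without adjustment the edgeR fit had 3 members higher and 1 lower with a p under 0.05, beside 25.5% of all genes tested (12.8% higher and 12.7% lower). From this count too nothing is read, and no member was called lower by edgeR, DESeq2 or limma-voom with all libraries. Its log2 fold change ranked 38 from the highest among 12752 genes. With WT replicate 1 left out, the log2 fold change was 3.02 and the gene was still called (beside 3.15% of genes tested). Without KO replicate 1 (3.02) or KO replicate 2 (3.61) it was not called, in fits where edgeR called 0 genes of any kind.

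**Figure D1:**
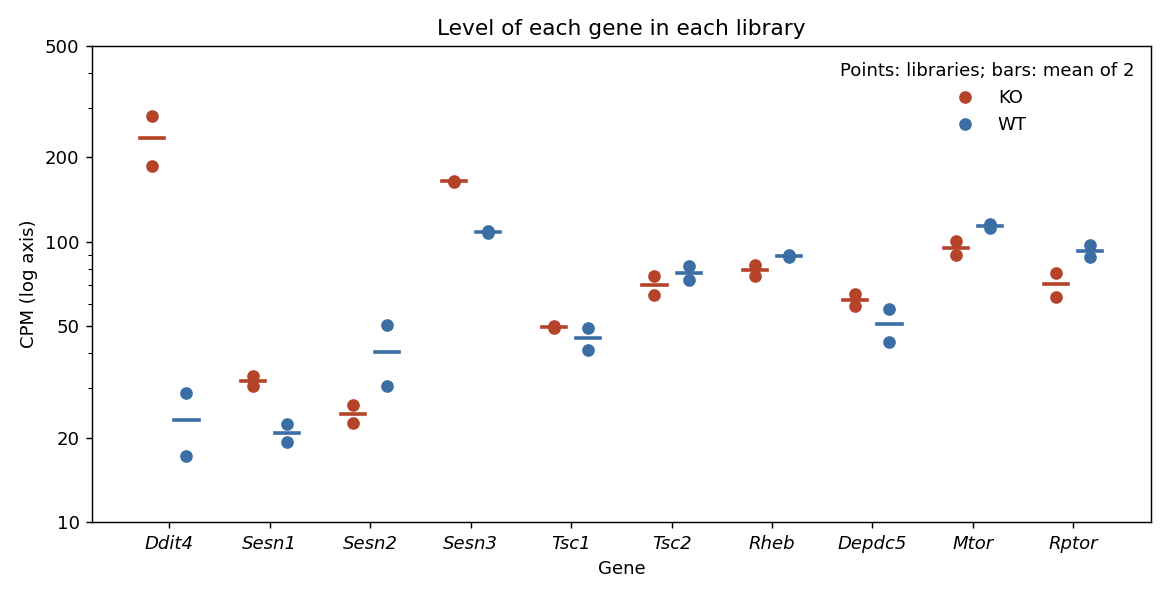
Level of each of the 10 genes in CPM (log axis), with KO libraries left of WT libraries for each gene, points for libraries and bars for the mean of 2. Ddit4 stands at 186 and 282 CPM in KO libraries and at 17.3 and 28.9 CPM in WT libraries, while the other genes lie within 1.67-fold between group means.

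In GRCm38, Ddit4 (ENSMUSG00000020108.4) occupies bases 59949669 to 59951834 of chromosome 10, minus strand, with 1755 bases of joined exons. Per kilobase of exon it had 160 and 106 CPM in KO libraries, above 98.6% and 97.0% of 11280 tested genes with an annotated length. In WT libraries it had 9.85 and 16.5 CPM per kilobase, above 58.3% and 71.9% of those genes. Ddit4 transcripts thus stood near the top of the range of levels in KO libraries and nearer its middle in WT libraries. Set against Mtor on the same scale, the level of Ddit4 was 18.1 and 10.7 times that of Mtor in KO libraries and 0.859 and 1.49 times in WT libraries.

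The sestrins inhibit GATOR2 and thereby mTORC1. In human cells SESN1 and SESN2 bind leucine, which releases that inhibition. The 3 members of the family lay on both sides. Sesn1, known as a target of p53, had 33.2 and 30.7 CPM in KO libraries, against 22.4 and 19.3 CPM in WT libraries (log2 fold change 0.62 ± 0.19). Both KO libraries lay above both WT libraries, and the difference was not called. Sesn3, known as a target of FOXO factors and the sestrin with the highest CPM here, had 165 and 164 CPM in KO libraries, against 110 and 108 CPM in WT libraries (0.60 ± 0.14). Its libraries within a group differed by at most 1.02 times, the KO mean was 1.51 times the WT mean, and edgeR did not call it. DESeq2 called Sesn3 higher (beside 11.9% of genes with an adjusted p), as did edgeR with no filter on low counts (7.73%) and without WT replicate 2 (19.2%).

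Sesn2, known to be induced by ATF4, p53 and NRF2, had 26.2 and 22.5 CPM in KO libraries, against 50.6 and 30.6 CPM in WT libraries. The groups did not overlap, but WT replicate 1 stood at 1.65 times WT replicate 2, nearly the 1.67-fold difference between the WT and KO means. The log2 fold change was -0.74 ± 0.26 and was not called. It was -0.32 without WT replicate 1, and -1.05 without WT replicate 2. Only the fit without WT replicate 2, which rests on 1 WT library, called Sesn2 lower. The class II markers were also highest in WT replicate 1 (3780 CPM, against 2241 CPM in WT replicate 2), and their part in the value of Sesn2 was not tested.

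The make-up of the family is compared per kilobase of exon. Sesn3 held 40.6% and 43.0% of the summed level of the 3 sestrins in KO libraries and 26.3% and 34.1% in WT libraries. Sesn2 held 28.3% and 26.0% in KO libraries and 53.2% and 42.6% in WT libraries. Sesn1 held 31.2% and 30.9% in KO libraries and 20.5% and 23.4% in WT libraries. The summed level was 26.7 and 24.9 CPM per kilobase in KO libraries, between the 27.4 and 20.7 of WT libraries, so the groups overlapped in the sum but not in the shares. With the length of the longest coding transcript in place of all joined exons, Sesn3 held 52.7% and 55.2% in KO libraries and 37.0% and 46.0% in WT libraries, and Sesn2 held 22.0% and 20.0% in KO libraries and 44.9% and 34.3% in WT libraries. The groups did not overlap with either length, but with the longest transcript Sesn3 was the largest part in WT replicate 2 as well. Sesn2 lay lower and Sesn1 and Sesn3 higher in both KO libraries. A lower Sesn2 share in KO libraries thus follows whatever lengths are used, and the second length is no separate check of it. The shares restate values known when the members were chosen, and nothing is read from them.

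**Figure D2:**
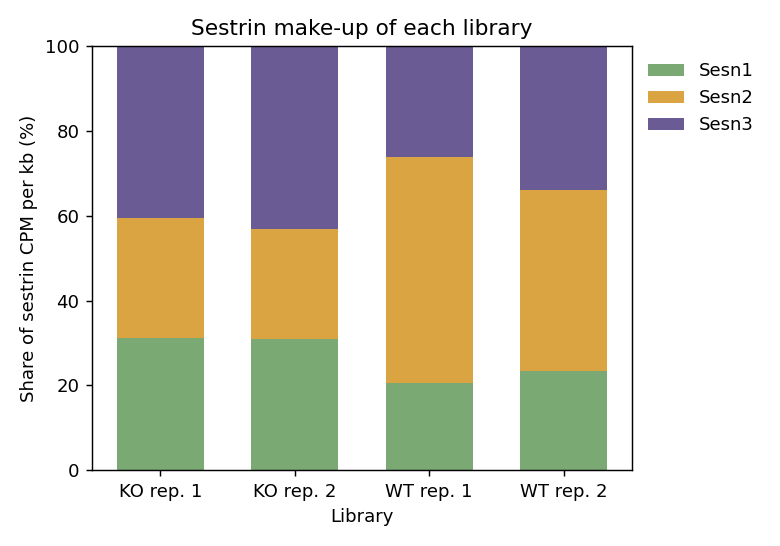
Share of each sestrin (percent of their summed CPM per kilobase of joined exons) in each library, KO libraries left of WT libraries. On this length Sesn2 is the largest part in both WT libraries (53.2% and 42.6%) and Sesn3 in both KO libraries (40.6% and 43.0%).

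The TSC complex is the GTPase-activating unit that turns RHEB off, with TSC2 as its catalytic subunit and TSC1 as its stabilising partner. Tsc1 had 50.1 and 49.5 CPM in KO libraries, against 49.5 and 41.2 CPM in WT libraries (log2 fold change 0.13 ± 0.17). Tsc2 had 64.9 and 75.8 CPM in KO libraries, against 73.2 and 81.7 CPM in WT libraries (-0.14 ± 0.17). These were the 2 members whose groups overlapped. Tsc2 shares 693 exon bases with Pkd1 on the opposite strand. Pkd1 had up to 1717 counts in a library, and the use of strand in counting is not given in the sources used here, so part of the count of Tsc2 may belong to Pkd1. Rheb had 82.5 and 75.7 CPM in KO libraries, against 88.4 and 89.7 CPM in WT libraries (-0.17 ± 0.15), with the KO libraries lower and no call.

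Depdc5, a subunit of the GATOR1 complex that inhibits the Rag GTPases when amino acids are scarce, had 65.3 and 58.9 CPM in KO libraries, against 44.1 and 57.7 CPM in WT libraries (0.29 ± 0.19). KO replicate 2 and WT replicate 2 lay close together, and without WT replicate 1 the log2 fold change was 0.11. Mtor, the kinase itself, had 89.8 and 101 CPM in KO libraries, against 116 and 112 CPM in WT libraries (-0.26 ± 0.15). Rptor, which encodes the subunit Raptor that recruits substrates and defines the complex, had 63.4 and 77.6 CPM in KO libraries, against 97.6 and 88.7 CPM in WT libraries (-0.40 ± 0.17). For both subunits the KO libraries lay below the WT libraries without a call. The KO and WT libraries did not overlap for 8 of the 10 members, 4 higher and 4 lower in KO, while 59.9% of all genes tested did not overlap either (29.8% higher and 30.1% lower in KO). Nothing is read from this count, since the same values chose the members. The median log2 fold change of the 10 members was -0.0025, against -0.0026 over all genes, and 6 of 10 lay within 0.5 of 0, as did 64.2% of all genes.

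**Figure D3:**
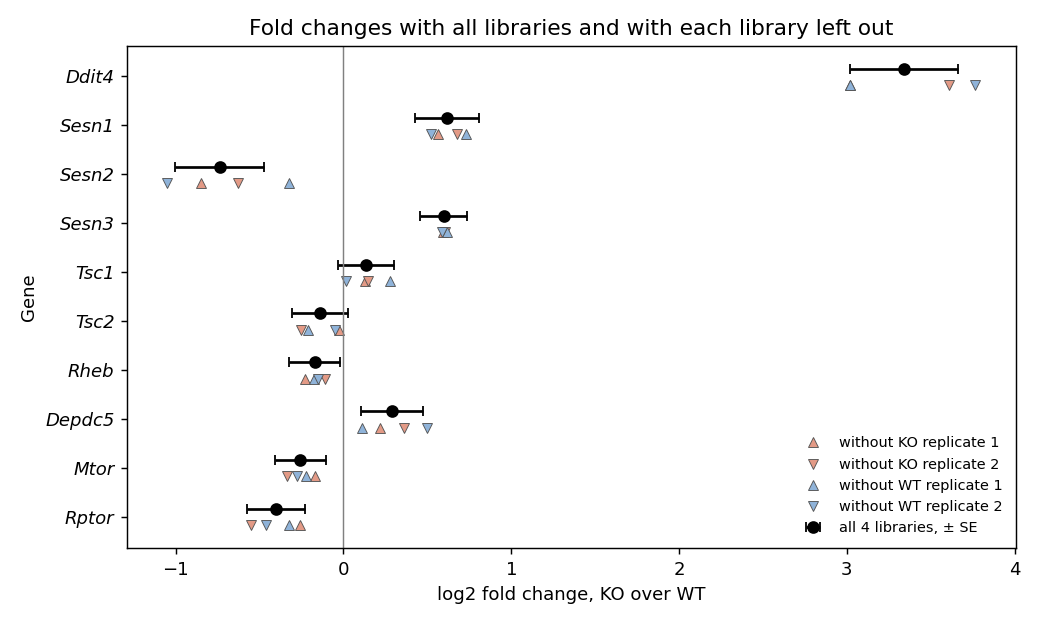
Log2 fold change of KO over WT for each gene with all 4 libraries (black, ± SE) and with each library left out (triangles). Ddit4 stays between 3.02 and 3.76, Sesn2 moves between -1.05 and -0.32, and the other 8 genes keep their sign.

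Levels between genes depend on the length assigned to each. With all exons joined, the order in KO libraries was Ddit4 (133 ± 38.3 CPM per kilobase), Sesn3, Rheb, Mtor, Sesn1, Tsc2, Sesn2, Depdc5, Rptor and Tsc1 (4.21 ± 0.0355; SD, n = 2). In that order the libraries of neighbours overlapped between Rheb and Mtor, between Sesn1, Tsc2 and Sesn2, and between Depdc5 and Rptor. In WT libraries the order was Ddit4 (13.2 ± 4.69), Sesn2, Rheb, Mtor, Tsc2, Sesn3, Rptor, Sesn1, Depdc5 and Tsc1 (3.83 ± 0.497). There the libraries of neighbours overlapped among the first 4 genes, between Sesn3 and Rptor, and among the last 3. With the longest coding transcript as the length, Ddit4 was still first in KO libraries (133 CPM per kilobase), followed by Rheb (44.3), but in WT libraries it was the fourth (13.2), after Rheb (49.9), Rptor and Mtor. The place of Ddit4 at the top of the order thus held in KO libraries with both lengths and in WT libraries with only 1 of them.

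By the pattern over the 4 libraries, the 5 tested genes nearest to Ddit4 were Arrb1, Apbb1, Mboat2, Gm5873 and Parp16. The measure was the Euclidean distance of log2 CPM centred on its mean over the 4 libraries, and the distances were between 0.239 and 0.439, against a median of 3.44 over 12742 genes. Arrb1, which encodes beta-arrestin 1, had 187 and 127 CPM in KO libraries, against 12.4 and 23.8 CPM in WT libraries. Its order of libraries was that of Ddit4, with KO replicate 1 highest and WT replicate 1 lowest. The other 4 had at most 16.3 CPM in KO libraries and 1.89 CPM in WT libraries, so their patterns rest on low counts. All 5 were called higher. Because they were picked for nearness to a pattern that is high in KO libraries, the calls and the shared order follow largely from the choice. Nothing is read from them, and 4 libraries give few points for such a likeness.

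**Figure D4:**
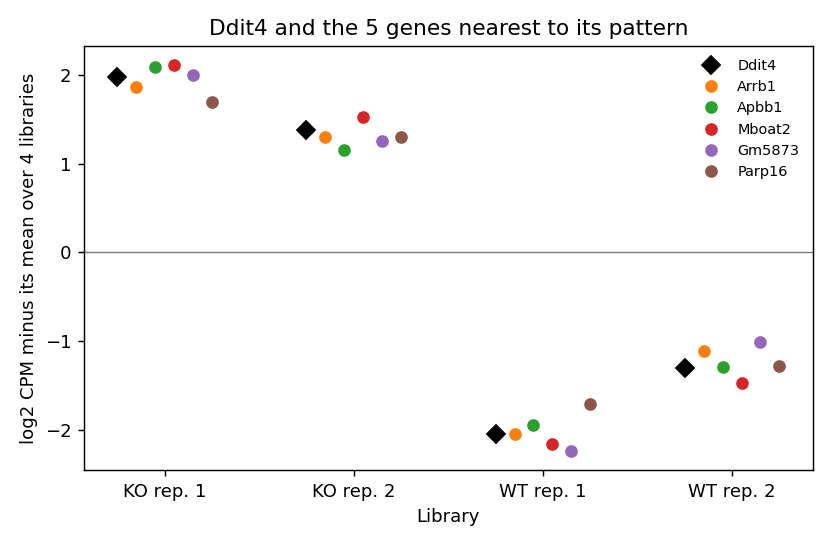
Log2 CPM minus its mean over the 4 libraries for Ddit4 (diamonds) and the 5 tested genes nearest to its pattern (circles), KO libraries left of WT libraries. Ddit4 lies at 1.97 and 1.38 in KO libraries and at -2.04 and -1.31 in WT libraries, with the other genes close by in each library.

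The other genes of the pathway were listed by textbook role, and 65 of 67 were tested. Of these edgeR called 2 higher and 0 lower in KO libraries, which is 3.08% of the list beside 3.95% of all genes tested, and the median log2 fold change was -0.01. Without adjustment, 5 higher and 8 lower had a p under 0.05, which is 20.0% of the list beside 25.5% of all genes tested. DESeq2 called 2 higher and 3 lower, beside 11.9% of all genes with an adjusted p called in either direction. Limma-voom called 2 higher and 0 lower, beside 376 higher and 217 lower among all 12752 genes. Both called genes were among the 15 downstream targets, proteins that mTORC1 signalling regulates mainly by phosphorylation, which transcript levels do not measure. Lpin1, a phosphatidate phosphatase that mTORC1 keeps out of the nucleus, had 63.8 and 38.2 CPM in KO libraries, against 7.09 and 6.62 CPM in WT libraries (log2 fold change 2.89 ± 0.29, adjusted p = 0.0199, edgeR). Pdcd4, an inhibitor of translation initiation that is degraded after phosphorylation by the S6 kinase, had 76.5 and 90.0 CPM in KO libraries, against 37.0 and 37.4 CPM in WT libraries (1.16 ± 0.16, adjusted p = 0.0326, edgeR). For both genes the KO libraries lay above the WT libraries. Without WT replicate 1 the log2 fold changes were 2.95 for Lpin1 and 1.16 for Pdcd4. Without WT replicate 2 they were 2.85 and 1.17. Neither was called without KO replicate 1 (2.48 and 1.28) or KO replicate 2 (3.22 and 1.04), where edgeR called 0 genes.

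In each role the uncalled gene with the largest difference marks its range. Among the downstream targets it was Larp1, a regulator of mRNAs for the translation machinery, with 481 and 621 CPM in KO libraries, against 893 and 869 CPM in WT libraries (-0.68 ± 0.17, adjusted p = 0.0711, edgeR). Among 11 genes of GATOR1, GATOR2 and KICSTOR, 0 were called by edgeR, 9 had a negative log2 fold change, and an unadjusted p under 0.05 was reached by 4 genes, all lower. Over all genes tested, 50.2% had a negative log2 fold change and 12.7% were lower at that p, and with 11 genes the difference from this background was not tested. The GATOR1 member Depdc5, described above at 0.29, is not among the 11. The largest difference in that group was that of Itfg2, a KICSTOR subunit, with 22.5 and 27.3 CPM in KO libraries, against 44.7 and 42.8 CPM in WT libraries (-0.81 ± 0.18, adjusted p = 0.0539, edgeR). Among 12 genes of the Rag GTPases, Ragulator and folliculin, it was Fnip2, a folliculin partner, with 8.06 and 6.74 CPM in KO libraries, against 15.6 and 15.6 CPM in WT libraries (-1.08 ± 0.25, adjusted p = 0.0610, edgeR). DESeq2 called Larp1, Itfg2 and Fnip2 lower, beside 11.9% of all genes with an adjusted p called in either direction. All 3 had KO libraries below both WT libraries.

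The 7 other subunits of mTORC1 and mTORC2 lay between -0.82 (Deptor, at most 1.69 CPM in any library) and 0.33. Among the 5 genes listed as amino acid sensors, Castor2, a paralog of Castor1, had the largest value (0.71 ± 0.33), with 21.6 and 13.8 CPM in KO libraries, against 13.1 and 8.45 CPM in WT libraries. Tbc1d7, the third subunit of the TSC complex, and Rhebl1, a RHEB paralog, lay between -0.35 (Rhebl1) and 0.31. The 12 tested upstream kinases, among them those of the AKT and AMPK families, lay between -0.19 and 0.35 (Prkag1, a regulatory subunit of AMPK), the narrowest range of the roles with more than 2 genes tested. Ddit4l, the paralog of Ddit4, was not tested, with at most 0.143 CPM in a library. Grb10, an adaptor that inhibits insulin receptor signalling, had 18 and 10 counts in KO libraries, against 0 and 6 in WT libraries (2.29 ± 1.16), and was not called.

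**Figure D5:**
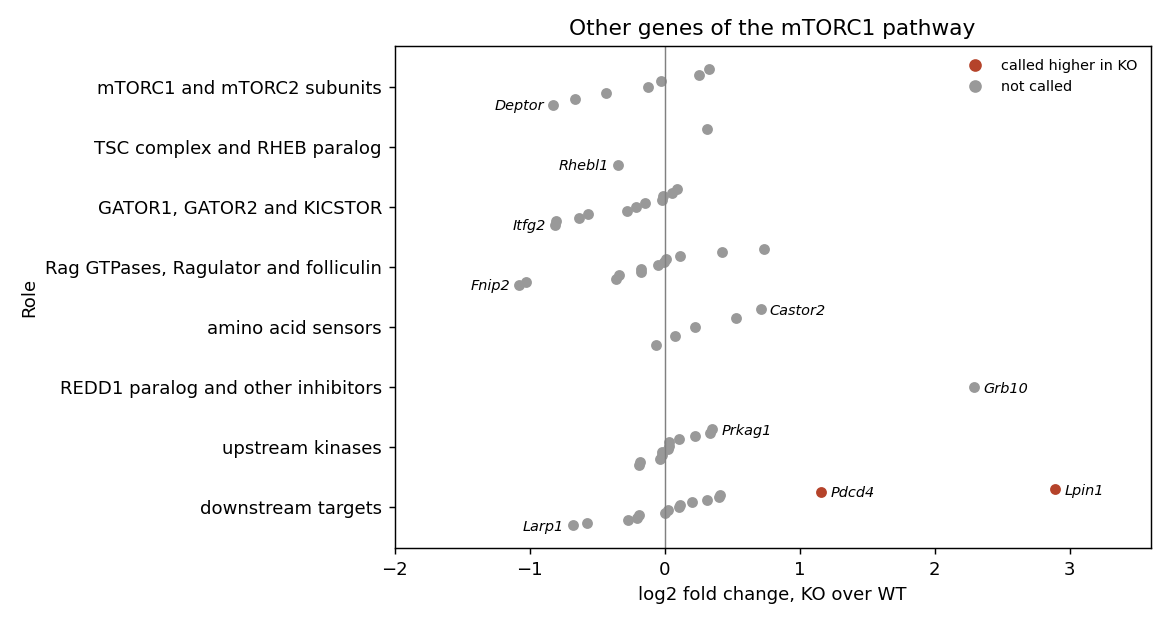
Log2 fold change of KO over WT for the 65 other tested genes of the pathway by role, with called genes in red and uncalled genes in grey. Lpin1 (2.89) and Pdcd4 (1.16) are the 2 called genes, and most other points lie near 0.

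Of 11 transcription factors known to induce Ddit4 or the sestrins, 10 were tested, with log2 fold changes between -1.03 and 3.56 and a median of 0.13. EdgeR called 1 of the 10 higher and 0 lower, beside 3.95% of all genes tested. Without adjustment 3 higher and 1 lower had a p under 0.05, beside 25.5% of all genes tested. Of the 10, 5 had a positive and 5 a negative log2 fold change. Hif1a, which encodes HIF-1 alpha, had 341 and 277 CPM in KO libraries, against 305 and 329 CPM in WT libraries (-0.04 ± 0.16). Foxo3 (0.76 ± 0.16) and Foxo4 (0.69 ± 0.19) lay higher, and Cebpb (-1.03 ± 0.29) and Atf4 (-0.48 ± 0.22) lower, none of them called. Foxo1 (0.29 ± 0.15), Nr3c1 (0.29 ± 0.18), Trp53 (-0.06 ± 0.16) and Nfe2l2 (-0.19 ± 0.17) were not called either. These factors are named here after their values were seen. The called gene was Epas1, which encodes HIF-2 alpha. It had 17.1 and 8.46 CPM in KO libraries, against 0.489 and 1.69 CPM in WT libraries (3.56 ± 0.63, adjusted p = 0.0402, edgeR). The KO libraries lay above the WT libraries, by an amount that moved with the WT library used. The log2 fold change was 2.92 without WT replicate 1 and 4.69 without WT replicate 2. Without KO replicate 1 (2.96) or KO replicate 2 (3.98) Epas1 was not called, in fits where edgeR called 0 genes.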

How the data were processed

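Each library has its own table of raw read counts by gene symbol (31748 symbols), as deposited by the authors. Per the submitters' processing notes, Subread 2.0.1 with featureCounts, R 4.0.4, DESeq2 1.30.1 and the mm10 build were used. The aligner, the annotation release, the strand setting and how multiply mapped reads were handled were not given in the sources used here. No column of values was left unused. The tests used edgeR 4.0.16 (under R 4.3.3): filterByExpr (minimum count 10, minimum total 15), TMM scaling, and the quasi-likelihood test of KO against WT with all 4 libraries and no covariate. The biological coefficient of variation was 21.4%. Recovery of known changes was tested on simulated data. Alternatives were other scaling, other filters, DESeq2 1.42.0, limma-voom (limma 3.58.1), a replicate block and each library left out. Lengths and positions are from GENCODE M21 (GRCm38), promoters from RefSeq (GRCm38.p6). No other annotated transcript matched a member at 95% identity over 500 bases, except Pkd1 over its overlap with Tsc2.

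The members and gene lists were chosen with earlier results of these data known. Named beside the members are the called genes of the pathway list, the uncalled gene with the largest absolute change in each role, and Mthfd2. Also named are the tested known inducers and the 5 genes nearest to Ddit4 by the pattern of their log2 CPM (prior count 2). Of the marker genes, Trac and Hbb-bs were not matched to the tables. Most of the NK sum given below was Eomes, with 46.0 and 56.8 CPM in KO libraries and 64.2 and 57.0 CPM in WT libraries. Most of the plasma cell sum was Xbp1, with 171 and 157 CPM in KO libraries and 177 and 206 CPM in WT libraries. These sums are therefore not a measure of NK or plasma cell content. Replicate libraries were not duplicates: chi-square over its degrees of freedom was 16.1 for the KO pair and 40.3 for the WT pair. Sums of the marker lists not given with the results were between 947 and 1033 CPM in KO libraries and between 764 and 798 CPM in WT libraries for CD8 T cells, between 8.82 and 15.2 against between 17.4 and 35.9 for dendritic cells, between 47.4 and 59.4 against between 60.5 and 67.9 for NK cells, between 0.141 and 0.574 against between 0.473 and 9.53 for neutrophils, between 1.22 and 4.38 against between 18.7 and 65.4 for erythroid cells, and between 162 and 178 against between 227 and 242 for plasma cells, KO libraries first in each pair.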

Additional observations from a re-analysis of the deposited data

How the results depend on the processing

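Over 12 alternatives each member kept the sign of its log2 fold change, with ranges of 3.02 to 3.76 for Ddit4, 0.52 to 0.73 for Sesn1, -1.05 to -0.32 for Sesn2 and 0.55 to 0.62 for Sesn3. For 8 members the groups did not overlap, so that leaving out a library could not turn a sign. With all libraries edgeR called 305 genes higher and 199 lower. The counts were 737 and 682 with no filter, 805 and 744 by DESeq2, and 488 and 401 with the replicate block, while upper quartile factors gave 122 lower. Leaving out a library gave between 0 and 1432 higher and between 0 and 1127 lower, with 0 without either KO library (1605 and 2161 genes at an unadjusted p under 0.05) and the highest counts without WT replicate 2. Members called higher were 1 with all libraries, 2 with no filter and 2 by DESeq2, and between 0 and 2 with a library left out; members called lower were between 0 and 1. Pathway genes called lower were 0 with all libraries, 3 with no filter, 3 by DESeq2, 1 with the replicate block (Larp1), and between 0 and 5 with a library left out; those called higher were between 0 and 2. The causes were not tested. Libraries with the same replicate number did not deviate together (r = 0.040 between KO replicate 1 and WT replicate 1), so the numbers were not taken to pair them. The replicate block changed no member's call. With the longest coding transcript as the length, an alternative chosen after seeing the data, the order of levels changed as reported. Small differences cannot be resolved with 2 libraries a group.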
